A study of Mus musculus with 8 samples.

Results

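The replication-dependent histone genes supply the bulk of the core and linker histones in dividing cells. Their members here are all genes of the deposited count table whose symbol starts with Hist1h, Hist2h, Hist3h or Hist4, a rule that used the symbol and no measured value. It took 64 of the 31894 genes: 6 of linker histone H1, 18 of H2A, 18 of H2B, 10 of H3 and 12 of H4. Of these, 55 with a Hist1 symbol lie on chromosome 13, 5 with a Hist2 symbol on chromosome 3, 3 with a Hist3 symbol on chromosome 11 and 1, Hist4h4, on chromosome 6. Hist1h2al, at chr13:51202688-51203065, lies far from the other Hist1 members. The table calls 62 of them protein coding and 2, Hist1h2aj and Hist3h2bb-ps, pseudogenes.

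The counts come from 8 bulk mRNA libraries of tumor cells sorted from breast cancer brain metastases (BCBM) of 4 mice, numbered 57, 58, 67 and 70. Each mouse gave 1 library of E-cadHI cells and 1 of E-cadLO cells, so each group holds 4 libraries and each mouse holds its own pair. In all libraries the strain was FVB, the genotype was given as wild type and no treatment or host age was named in the labels. The transplanted tumor cells came from PyMT E-cad-mCFP mammary tumors, in which the polyoma middle T antigen drives the tumor and E-cadherin is fused to a cyan fluorescent protein. They had been passed through the brain and grown as organoids, so the 4 mice are hosts of a transplanted tumor model and not 4 spontaneous tumors. The cells also carried H2B-Dendra2, a lentiviral fusion of histone H2B with a fluorescent protein. Dendra2-positive, tdTomato-negative live cells were split by their cyan signal into E-cadHI (positive) and E-cadLO (negative). The comparison asks how the cells that have lost E-cadherin differ from those that keep it.

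Replication-dependent histone genes are transcribed mainly in S phase, when new DNA has to be packed into nucleosomes. Nucleosomes hold H2A, H2B, H3 and H4, and H1 binds the linker DNA between them. The mRNAs of these genes are unusual in that most lack introns and end not in a poly(A) tail but in a conserved stem-loop, which is bound by the stem-loop binding protein SLBP. Replacement histones such as H3.3 and H2A.Z are made outside S phase too, from ordinary polyadenylated mRNAs. The libraries were made with an mRNA kit that selects poly(A) RNA, so the counts measure only the part of histone mRNA that entered such libraries, and histone mRNA without a tail is captured poorly.

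Total counts ranged from 9102781 to 15769200 per library. E-cadherin mRNA (Cdh1), the target of the sort, was 111.8 ± 15.96 normalized CPM in E-cadHI and 99.2 ± 55.8 in E-cadLO (mean ± SD, n = 4), and the groups overlapped. CPM are a gene's counts per 1000000 counts of the library, and normalized CPM are scaled by the TMM factors of edgeR as well. Cdh1 was lower in E-cadLO in mice 57, 67 and 70, but in mouse 58 the library labelled E-cadLO held more of it (181 normalized CPM) than the library labelled E-cadHI (132). The sort acted on the fusion protein and not on mRNA, and the histone sum is given with and without that mouse. Epithelial keratins were abundant in all libraries (Krt18 at 3079 ± 550 in E-cadHI and 3735 ± 1948 in E-cadLO). Markers of brain cells were present in the libraries of both groups, and their values are set beside the histone values further on.

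The sequence feature that defines the class was looked for in the GENCODE M21 transcripts (GRCm38), as GGNNCTTNTNAGNGCC on the transcript strand after the end of the coding sequence. It was found in 38 of 62 members with an annotated transcript. Over whole transcripts, without the limit to the part after the coding sequence, it was found in 62 of 21901 protein-coding genes (0.283%). That count includes members. The 38 members shared 7 different 16-base versions of it. The stem-loops of the members whose values the results turn on are shown with the 16 bases in capitals.
Hist1h1c: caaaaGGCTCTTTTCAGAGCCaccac
Hist1h4i: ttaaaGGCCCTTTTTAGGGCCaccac
Hist2h4: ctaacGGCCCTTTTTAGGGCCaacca
Hist1h4n: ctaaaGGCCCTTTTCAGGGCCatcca
Hist4h4: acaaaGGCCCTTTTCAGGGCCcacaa
Hist3h2a: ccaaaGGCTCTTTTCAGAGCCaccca
The version of Hist1h1c and Hist3h2a was the most frequent, with 21 members of H1, H2A, H2B and H3 families. The version of Hist4h4 and Hist1h4n was found in 6 H4 members, and that of Hist1h4i and Hist2h4 in these 2 alone. In Hist1h4i the stem-loop lies at chr13:22040966-22040981 on the minus strand, 34 bases after the coding sequence. In Hist4h4 it lies at chr6:136803998-136804013 on the minus strand. Hist1h1a, Hist1h1b and Hist1h2bc, which are described further on, held no such sequence in their annotated transcripts. Sequence past the end of an annotated transcript could not be searched. The model of Hist1h1a, for example, has 642 bases for 639 coding bases.

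Histone counts were low and uneven between members. Of the 64 members, 42 had at least 1 count in every library, 21 had at least 10 counts in every library, 14 had at most 10 counts in every library and 22 were at 0 in at least 1 library. Hist1h4b and Hist2h2ab were at 0 in all 4 E-cadHI libraries, with 3 counts each over the E-cadLO libraries, which is at the floor of 3 counts (between 0.190 and 0.330 CPM per library). The 12 members with the highest mean level took between 80.2% and 91.0% of the members' counts in every library. The H2B gene Hist1h2bc alone took between 26.7% and 52.9%.

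Per length, the order of the members was led by Hist1h2bc. Its mean normalized CPM per kb of exon was 180 ± 67.2 in E-cadHI and 278 ± 113 in E-cadLO (SD, n = 4). It was followed by the H4 gene Hist1h4d (44.5 ± 15.3 and 78.6 ± 20.3), the H2A gene Hist1h2ae (42.9 ± 11.9 and 61.3 ± 18.4) and the linker histone gene Hist1h1c (25.7 ± 9.69 and 59.2 ± 34.1). Next came Hist1h4i (15.8 ± 5.03 and 64.6 ± 48.3) and Hist1h2ak (39.3 ± 7.90 and 39.4 ± 10.8). In E-cadLO, the neighbours from the second to the sixth of this order differed by less than the larger of their SDs. In E-cadHI, Hist1h4d and Hist1h2ae did not differ beyond their SDs, and Hist1h4i lay further below Hist1h2ak than their SDs. Hist1h2bc stood above them in both groups. All of these levels are of poly(A)-selected RNA and do not rank the members' total mRNA.

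The summed share of the 64 members was higher in E-cadLO than in E-cadHI within each of the 4 mice. In E-cadHI it was 341, 234, 275 and 354 CPM of the library total in mice 57, 58, 67 and 70. In E-cadLO it was 1031, 375, 703 and 395. Every E-cadLO library was above every E-cadHI library, and the gap between the groups was small, from 354 to 375. The mean was 301 ± 56.5 in E-cadHI and 626 ± 309 in E-cadLO (SD, n = 4). The ratio of E-cadLO to E-cadHI was highest in mouse 57 (3.02), followed by mouse 67 (2.56), mouse 58 (1.60) and mouse 70 (1.12). Counting error was small beside these differences: the 95% Wilson interval of the mouse 70 libraries ran from 344 to 365 in E-cadHI and from 385 to 405 in E-cadLO. Such intervals hold for counting error alone, because reads copied by PCR are not separate molecules. The mean log2 ratio of the 4 mice was 0.95 ± 0.65 (SD), which is 1.93-fold, and without mouse 58 it was 1.04.

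**Figure D1:**
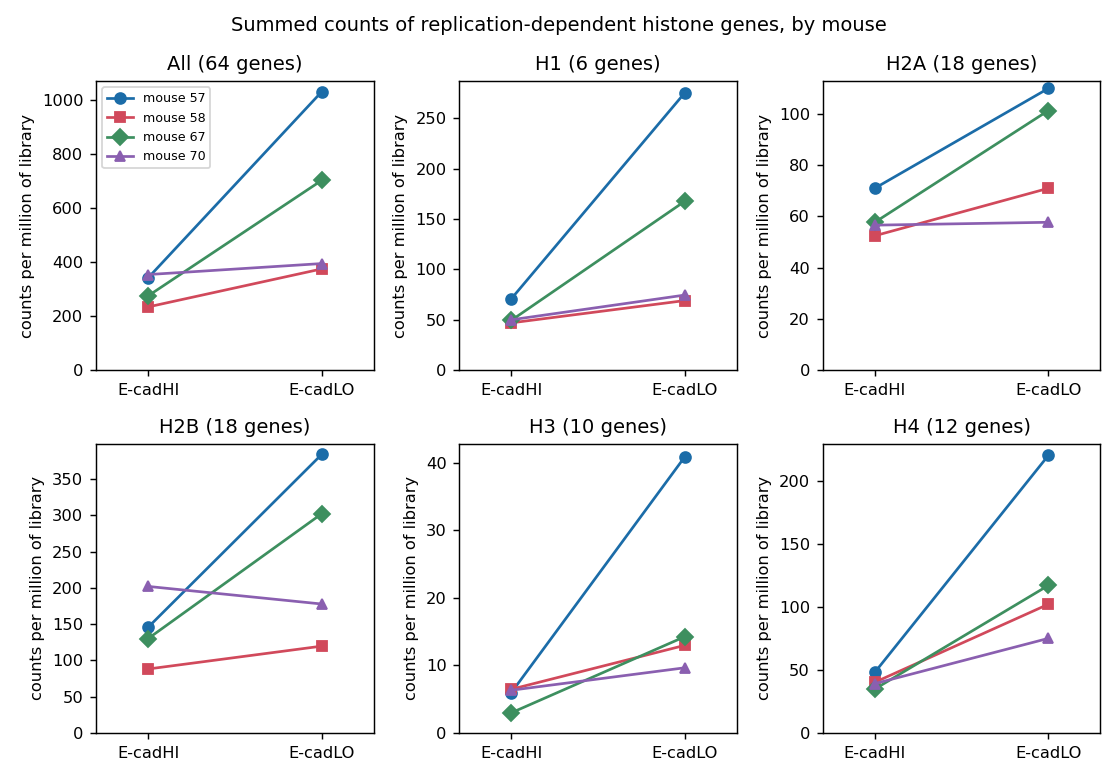
Summed counts of all 64 histone members and of each family, in CPM of the library total (y axis, from 0), in E-cadHI and E-cadLO cells (x axis). Each line joins the 2 libraries of a mouse. All lines go up for the sum, H1, H2A, H3 and H4, with mouse 57 the steepest (341 to 1031 for the sum), and the H2B line of mouse 70 goes down from 202 to 178.

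Between families the size of the difference varied, which was not tested. The H4 sum was 40.6 ± 5.51 CPM in E-cadHI and 129 ± 63.6 in E-cadLO, and the H3 sum 5.43 ± 1.65 and 19.4 ± 14.4. For both families every E-cadLO library was above every E-cadHI library. The H1 sum was 54.4 ± 11.1 and 147 ± 97.0, higher in E-cadLO in 4 of 4 mice with 1 overlap between the groups, where the library of mouse 58 labelled E-cadLO (69.1) lay below mouse 57 E-cadHI (70.9). The H2A sum was 59.4 ± 8.03 and 84.98 ± 24.7, and the H2B sum 141 ± 47.1 and 246 ± 119. H2B was the only family that was lower in E-cadLO in a mouse, at 178 against 202 in mouse 70. Hist1h2bc made most of the H2B counts, and without it the sum of the other 63 members was 172 ± 22.6 in E-cadHI and 411 ± 205 in E-cadLO. The Hist2 members together went from 4.99 ± 1.28 to 18.3 ± 6.90 and the Hist3 members from 11.9 ± 3.28 to 16.1 ± 4.61.

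Gene by gene, the 8 libraries were compared with the quasi-likelihood test of edgeR. P-values were adjusted after Benjamini and Hochberg over the 13598 genes that passed a filter on low counts. Of the 64 members, 36 passed the filter and 28 did not. A member that passed only through its E-cadLO libraries had to be higher there, and 22 of the 36 had at least 10 counts in every E-cadHI library. No member passed an adjusted p of 0.05 in either direction, and neither did any other gene (0% of the genes tested). The smallest adjusted p of a member was 0.204. At an unadjusted p under 0.05, 19 of the 36 members were higher in E-cadLO, against 8.16% of all genes tested, and 0 were lower, against 5.81%. Without the filter, all 64 members entered the test among 30100 genes. Of these members, 62 had a positive log2 fold change (E-cadLO over E-cadHI), against 53.4% of genes. At an unadjusted p under 0.05 in edgeR, 19 members were higher, against 6.12% of genes, and 0 members were lower. Their median log2 fold change was 1.38, beside 0.07 for all genes in that fit. Among the 36 members it was 1.35, beside 0.06.

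Direction was also followed within the mice. Of the 36 tested members, 25 were higher in E-cadLO in 4 of 4 mice, against 16.8% of the genes tested, and 1 was lower in 4 of 4. In 19 of the 36 every E-cadLO library was above every E-cadHI library, against 3.90% of the genes tested. Members that passed the filter only through their E-cadLO libraries can raise both counts. Among all 64 members, with no filter, 33 were higher in E-cadLO in 4 of 4 mice and 1 was lower in 4 of 4. In 24 of the 64 every E-cadLO library was above every E-cadHI library, and in 1 every E-cadLO library was below. The shares of all genes without the filter were not computed, so these counts over the 64 have no background beside them. The median log2 ratio of the tested members was 1.15, 0.86, 1.23 and 0.53 in mice 57, 58, 67 and 70, beside medians of all tested genes from 4.79e-04 to 0.07.

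With the mouse as a replicate block, 1 member passed, the H4 gene Hist1h4i (adjusted p = 0.0363, edgeR), against 0.728% of genes higher in E-cadLO in that fit. DESeq2, run without a block, called 12 of the 46 members to which it gave an adjusted p, all higher in E-cadLO, against 2.48% of genes. These were Hist1h1a, Hist1h1b, Hist1h1d, Hist1h2aa, Hist1h2be, Hist2h3c2 and the H4 genes Hist1h4a, Hist1h4c, Hist1h4i, Hist1h4n, Hist2h4 and Hist4h4. In simulated counts DESeq2 made false calls more often than edgeR (22.8% against 5.65% of its calls with the spread of the unpaired fit, and 19.8% against 3.70% with that of the paired fit). The simulated libraries held no mouse effect, so these shares do not show how the fits behave on paired libraries.

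**Figure D2:**
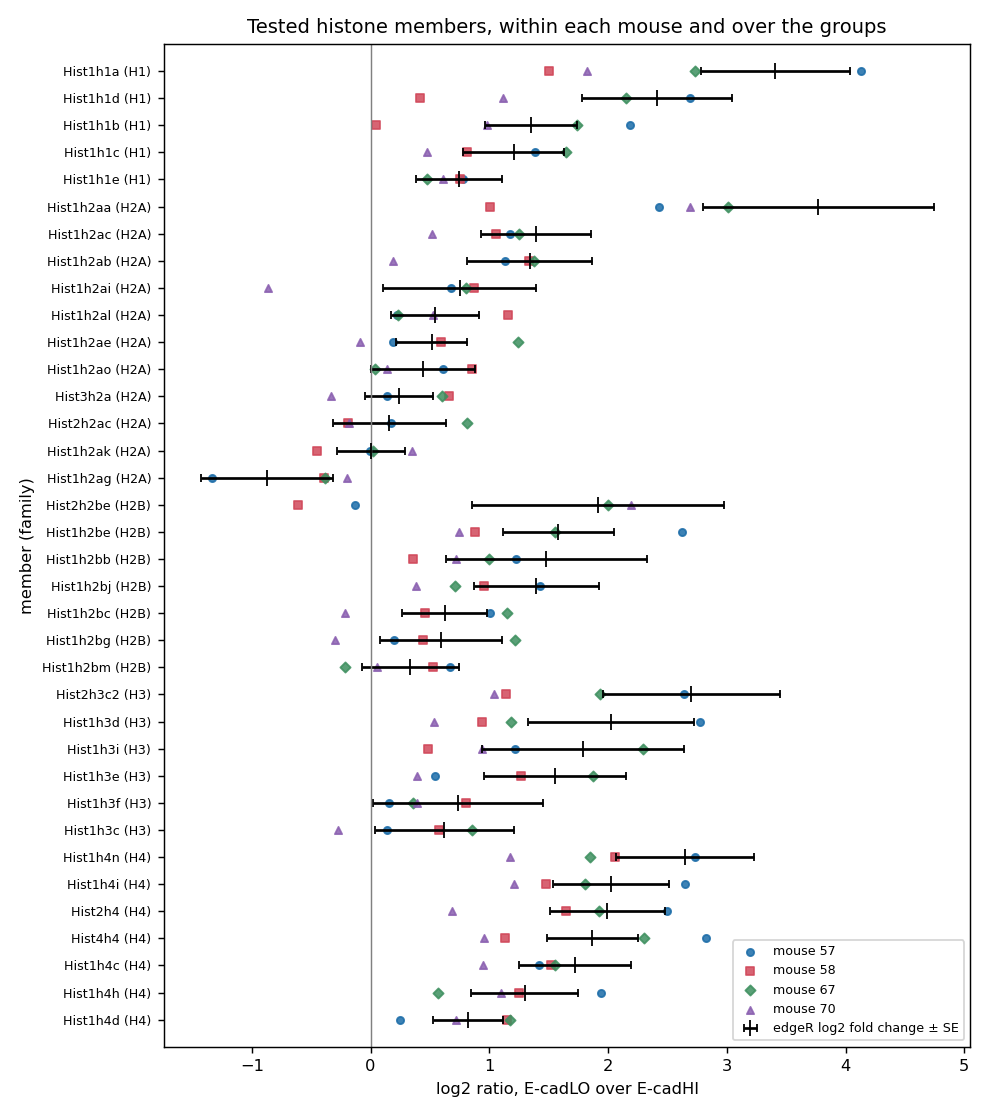
Log2 ratio of E-cadLO over E-cadHI for the 36 tested members, grouped by family (y axis). Colored points are the ratios within each mouse on normalized CPM plus 0.5, and black bars are the edgeR log2 fold change ± SE. The H4, H3 and H1 members lie to the right of 0 for nearly all mice, and Hist1h2ag is the member with all 4 mice to the left of 0.

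**Figure D3:**
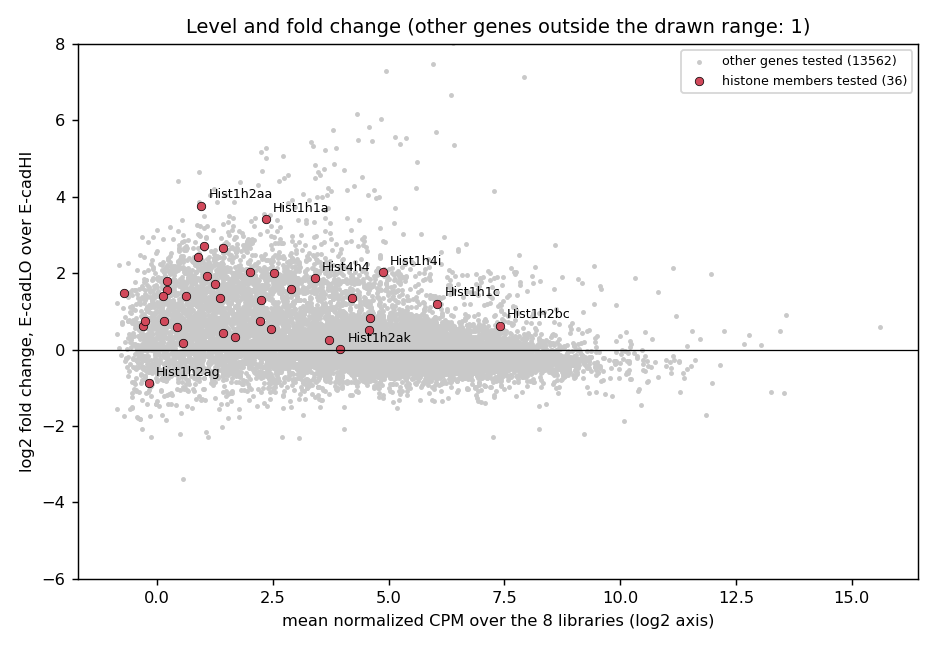
Log2 fold change (E-cadLO over E-cadHI, y axis) against the mean normalized CPM of the 8 libraries on a log2 axis, for the 36 tested members (red) and 13562 other genes (grey). The members span the range from under 1 to over 100 CPM, and 35 of 36 lie above 0, against 55.1% of all genes tested.

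All 7 tested H4 members were higher at an unadjusted p under 0.05, with log2 fold changes from 0.82 to 2.65. Hist1h4i had the highest mean level of them by CPM in E-cadLO. Its normalized CPM was 15.3, 6.99, 10.3 and 13.4 in E-cadHI (mice 57, 58, 67 and 70) and 98.6, 20.4, 37.3 and 31.7 in E-cadLO. Every E-cadLO library was above every E-cadHI library, and mouse 57 stood well above the other 3. The log2 fold change was 2.03 ± 0.49 (SE, edgeR adjusted p = 0.253), and with the replicate block 1.83 ± 0.27 (adjusted p = 0.0363). The blocked call was kept without mouse 57 (adjusted p = 0.0110) and was lost without mouse 58, 67 or 70 (0.0778, 0.374 and 0.136, edgeR).

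Hist4h4, the single gene of its locus, was at 2.65, 6.61, 3.27 and 5.71 normalized CPM in E-cadHI and 21.8, 15.1, 18.1 and 11.5 in E-cadLO. The lowest E-cadLO library was above the highest E-cadHI library, and the log2 fold change was 1.87 ± 0.38 (edgeR adjusted p = 0.240). Hist2h4 was at 1.95, 3.38, 1.71 and 2.11 against 13.4, 11.6, 7.88 and 3.70 (log2 fold change 1.99 ± 0.49, adjusted p = 0.253, edgeR). Hist1h4n, at 0.726 ± 0.291 and 4.61 ± 2.28, had the largest log2 fold change of the tested H4 members, 2.65 ± 0.58 (edgeR adjusted p = 0.251). In both Hist2h4 and Hist1h4n the groups did not overlap, and mouse 70 had the smallest within-mouse ratio, as it had in Hist1h4i and Hist4h4. Hist1h4d, which by mean CPM was above Hist1h4i in E-cadHI and below it in E-cadLO, differed less: 25.7, 18.3, 13.0 and 13.0 against 30.7, 41.2, 29.96 and 21.7, with overlap (0.82 ± 0.29, edgeR adjusted p = 0.305).

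Of the 5 tested H1 members, 4 were higher in E-cadLO at an unadjusted p under 0.05. Hist1h1a had the smallest p of all members. Its counts were 10, 15, 11 and 9 in E-cadHI and 276, 36, 123 and 58 in E-cadLO, or 0.864 ± 0.199 and 9.26 ± 7.75 normalized CPM. The E-cadLO value of mouse 57 was the highest, and the groups did not overlap. The log2 fold change was 3.41 ± 0.63 (unadjusted p = 3.61e-04, edgeR adjusted p = 0.204). None of the 65-base stretches of its transcript occurred in another gene of the table.

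Hist1h1c, a linker histone gene that is widely expressed in somatic cells, was at 60.8, 25.0, 34.7 and 39.9 normalized CPM in E-cadHI and 160, 44.3, 110 and 55.8 in E-cadLO. It was higher in E-cadLO within each mouse, but the groups overlapped, since mouse 58 and mouse 70 E-cadLO lay below mouse 57 E-cadHI. The log2 fold change was 1.20 ± 0.42 (edgeR adjusted p = 0.303). Hist1h1b was at 8.29, 15.4, 10.1 and 7.81 against 39.5, 15.9, 34.9 and 15.9, a log2 fold change of 1.35 ± 0.39 (edgeR adjusted p = 0.274), and in mouse 58 its 2 libraries hardly differed. Hist1h1t, the testis H1 gene, had between 0 and 5 counts per library and was not tested.

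The 6 tested H3 members all had positive log2 fold changes, from 0.62 to 2.70, and 3 were higher at an unadjusted p under 0.05. Hist2h3c2 was at 0.906, 0.307, 0.372 and 0.527 normalized CPM in E-cadHI and 8.25, 1.28, 2.83 and 1.61 in E-cadLO (2.70 ± 0.74, edgeR adjusted p = 0.269). Hist1h3d had the highest H3 counts, but mouse 57 E-cadLO with 226 counts stood apart from the other 3 E-cadLO libraries, with 23, 47 and 45, and from E-cadHI, with 29, 15, 15 and 23. Its log2 fold change was 2.03 ± 0.70 (edgeR adjusted p = 0.301). Hist1h3e was at 0.585 ± 0.263 and 1.74 ± 0.739 normalized CPM (1.55 ± 0.60, edgeR adjusted p = 0.318), without overlap.

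The 11 tested H2A members had the lowest median log2 fold change of the families, 0.52, and 3 were higher at an unadjusted p under 0.05. The most abundant H2A gene by CPM, Hist1h2ae, was at 27.3, 19.8, 14.7 and 17.0 normalized CPM in E-cadHI and 31.3, 30.1, 35.4 and 16.004 in E-cadLO, with overlap (0.52 ± 0.30, edgeR adjusted p = 0.440). Hist1h2ak hardly differed between the groups, at 15.4 ± 3.11 and 15.5 ± 4.23. Its log2 fold change of 0.01 ± 0.29 (edgeR adjusted p = 0.993) changed sign between fits, and was -0.019 with the replicate block. Hist1h2al was at 4.48 ± 1.31 and 6.53 ± 1.02 (0.54 ± 0.37, edgeR adjusted p = 0.497).

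Hist1h2ag was the only tested member with a negative log2 fold change. It had 19, 16, 15 and 10 counts in E-cadHI and 3, 7, 11 and 10 in E-cadLO, which is 1.14 ± 0.192 and 0.619 ± 0.268 normalized CPM. All E-cadLO libraries were below all E-cadHI libraries on that scale, but at these counts the difference was within the error of the test (-0.88 ± 0.56, edgeR adjusted p = 0.471).

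Hist1h2aa, the testis H2A gene, was at the other end. It had 9, 2, 3 and 0 counts in E-cadHI and 75, 7, 79 and 39 in E-cadLO. The fitted log2 fold change, 3.77 ± 0.97 (edgeR adjusted p = 0.262), was the largest of the tested members and rests on few E-cadHI counts. Its head-to-head neighbour Hist1h2ba, the testis H2B gene, had between 0 and 9 counts per library and was not tested.

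All 7 tested H2B members had positive log2 fold changes, from 0.34 to 1.92, and 2 were higher at an unadjusted p under 0.05. The highest of these was that of Hist2h2be (1.92 ± 1.06, edgeR adjusted p = 0.428), which had 3, 15, 14 and 13 counts in E-cadHI and 2, 5, 84 and 100 in E-cadLO. It was lower in E-cadLO in mice 57 and 58, and mice 67 and 70 carried the difference. Hist1h2bc was at 142, 76.9, 117 and 195 normalized CPM in E-cadHI and 285, 106, 260 and 168 in E-cadLO. It was higher in E-cadLO in mice 57, 58 and 67 and lower in mouse 70, and the log2 fold change was 0.62 ± 0.36 (edgeR adjusted p = 0.436). Its share of the members' counts was lower in E-cadLO in 4 of 4 mice, at 34.1% ± 5.64 against 42.1% ± 8.29. Hist1h2be was at 2.16, 2.61, 3.94 and 6.06 against 15.9, 5.23, 12.5 and 10.5 (1.58 ± 0.47, edgeR adjusted p = 0.282). In GENCODE M21 the exon of its neighbour Hist1h1e on the same strand runs into its gene model, but the spans of the genes in the deposited table do not overlap. Hist1h2bm was at 2.82 ± 0.295 and 3.57 ± 1.08 (0.34 ± 0.41, edgeR adjusted p = 0.695). The tumor cells also carried the H2B part of the H2B-Dendra2 transgene, which has no row of its own. Whether its reads were counted under an H2B member was not tested.

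Hist3 members were few. Hist3h2a, an H2A gene, was at 14.5, 7.91, 10.3 and 15.5 normalized CPM in E-cadHI and 15.97, 12.8, 15.95 and 12.2 in E-cadLO, with overlap (0.24 ± 0.29, edgeR adjusted p = 0.690), and shares exon sequence with Trim17 on the same strand. Hist3h2ba had 3, 2, 0 and 2 counts against 33, 8, 4 and 17, and Hist3h2bb-ps had at most 4 counts in any library. Neither was tested.

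The annotated ends of the genes set which part of a histone mRNA can be counted. In 15 members the table's gene model runs more than 50 bases past the stem-loop, in 23 it ends within 50 bases after the stem-loop (in Hist1h3g, before it), in 24 the annotated transcripts hold no stem-loop and 2 members have no annotation in GENCODE M21. These classes follow the gene spans of the deposited table. In GENCODE M21 some of the 23 run further, such as Hist1h1d, Hist1h2ac and Hist1h1e, by 4884, 2010 and 1153 bases. Hist1h2bp, among the 15, ends there 38 bases past the stem-loop. The table's models of Hist1h4i, Hist1h1c, Hist2h4, Hist3h2a and Hist4h4 run 330, 840, 1257, 1643 and 2445 bases past it. Some of the 24 members, such as Hist1h1a and Hist1h2ak, have models that stop a few bases after the coding sequence. A stem-loop further on could not be found in them, so the 24 are a class of annotation and may not lack the feature. The 15 members with the longer models took 29.1%, 25.1%, 24.7% and 24.4% of the members' counts in E-cadHI and 41.7%, 31.0%, 31.7% and 31.4% in E-cadLO. Every E-cadLO library was above every E-cadHI library. Their summed share was 78.0 ± 18.3 CPM in E-cadHI and 223 ± 146 in E-cadLO, a mean within-mouse log2 ratio of 1.33 ± 0.71. For the members that end at the stem-loop the sums were 55.1 ± 10.003 and 105 ± 30.1 (0.90 ± 0.34), and for those without an annotated stem-loop 165 ± 43.2 and 294 ± 147 (0.72 ± 0.72). The last sum mostly follows Hist1h2bc, which held 17850 of the 23726 counts of that class. Its model does not stop at the coding sequence, with 736 exon bases for 378 coding bases. In the fit without a filter the 15, 23 and 24 members had median log2 fold changes of 1.75, 1.29 and 1.43, beside 0.07 for all genes. The counts do not give the position of reads within a gene, so whether reads lie past the stem-loop was not tested.

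Many H2A and H2B genes start head to head. There were 13 such pairs, with 172 to 305 bases between the annotated starts, and each joins an H2A and an H2B gene. In 9 of the 13 pairs the levels per kb of exon were more than 3-fold apart, and in the other 4 they were within 3-fold. Hist1h2bc stood at 229 normalized CPM per kb over the 8 libraries and its partner Hist1h2ac, 274 bases away, at 3.22, a ratio of 71.2. Their annotated models differ. That of Hist1h2bc has 2 exons, and that of Hist1h2ac stops 28 bases past its stem-loop in the table but 2010 bases past it in GENCODE M21. All pair levels are of poly(A)-selected RNA and do not measure the output of a shared promoter. Hist1h2ak and Hist1h2bn stood at 39.4 and 1.29, and Hist1h2ae and Hist1h2bg at 52.1 and 2.82. Hist1h2ag and Hist1h2bj were close, at 1.81 and 2.34. The pair Hist1h2ap and Hist1h2br stood at 0.219 and 0.203, but with few counts and a ratio that rests on the length used. Per kb of coding sequence they were at 0.270 and 1.12. On that scale 8 of the 12 pairs with a coding length for both genes were more than 3-fold apart, Hist1h2ac and Hist1h2bc again the most, at a ratio of 114. Hist1h2ac, the partner of Hist1h2bc with the lower counts, went from 0.841 ± 0.119 to 2.22 ± 0.620 normalized CPM with no overlap (log2 fold change 1.39 ± 0.47, edgeR adjusted p = 0.298).

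**Figure D4:**
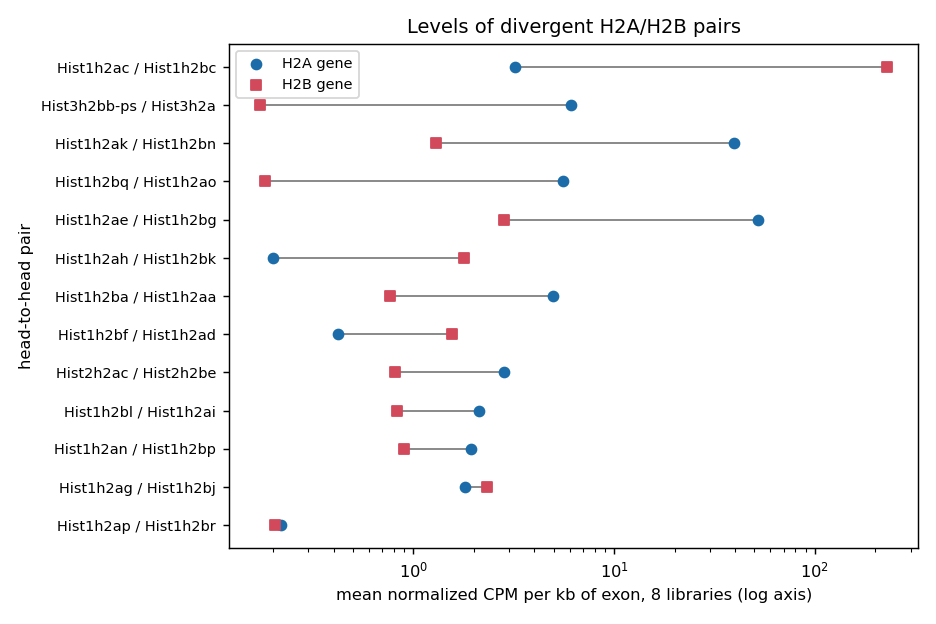
Mean normalized CPM per kb of exon over the 8 libraries (x axis, log) for the H2A gene (blue circle) and the H2B gene (red square) of the 13 head-to-head pairs (y axis). The pair of Hist1h2ac and Hist1h2bc is the widest, at 3.22 and 229, and the pairs are ordered by the ratio of their genes.

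The promoter that the widest pair shares is shown from the side of Hist1h2ac (RefSeq, GRCm38.p6, chr13:23683910-23684209, minus strand, 250 bases before and 50 after the start), with the motifs found in capitals: the CCAAT box on both strands, the TATA box and an octamer, ATTTGCAT, on the other strand.
Hist1h2ac: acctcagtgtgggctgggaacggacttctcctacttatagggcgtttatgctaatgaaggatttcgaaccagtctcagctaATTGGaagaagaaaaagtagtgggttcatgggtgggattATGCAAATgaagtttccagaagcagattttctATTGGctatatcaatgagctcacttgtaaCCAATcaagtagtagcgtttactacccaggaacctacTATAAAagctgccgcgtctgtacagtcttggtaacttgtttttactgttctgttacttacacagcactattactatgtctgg
The promoter of Hist1h4i, the member called with the block, holds TATAAA but no CCAAT box or octamer (chr13:22041313-22041612, minus strand).
Hist1h4i: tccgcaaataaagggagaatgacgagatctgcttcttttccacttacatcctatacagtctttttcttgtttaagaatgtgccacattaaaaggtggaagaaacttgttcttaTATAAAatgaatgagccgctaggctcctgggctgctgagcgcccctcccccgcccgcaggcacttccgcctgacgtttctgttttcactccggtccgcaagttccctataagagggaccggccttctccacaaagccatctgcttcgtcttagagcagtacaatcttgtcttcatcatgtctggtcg
Promoters were matched for 56 members by symbol or synonym, with the start site within 1000 bases of the member's span, and searched on both strands. TATAAA was found in 33 of them, against 13.6% of all 32851 promoters of that length, and CCAAT in 48, against 37.4%. CCAAT was in all 16 H2A, 15 H2B, 8 H3 and 6 H1 promoters searched, but in 3 of 11 H4 promoters. ATTTGCAT was found in 13 members, all of H2A or H2B, against 1.74% of promoters, and the E2F-type letters TTTCGCGC in 9, again all of H2A or H2B, against 0.323%. Promoters of head-to-head pairs overlap and both strands were searched, so a single site can count for both members of a pair. These are letter matches only.

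Near-identical coding sequences limit what can be said of single members. For the 62 members with transcripts, the share of 65-base stretches, the read length, that also occur in another gene of the table ranged from 0% to 96.6% (Hist1h2bq), with a median of 53.9%. How the counting treated reads that match several genes is not given in the sources used here. The 30 members with under 50% shared held 87.3% of the members' counts. Their median log2 fold change without a filter was 1.59, with 29 of 30 positive, and for the 32 members with 50% or more it was 1.22, with 31 positive. Hist1h2bc shared 45.1%, Hist1h4i 25.0% and Hist1h2ag 78.1%, so the values of the last are the least certain of these.

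Genes of DNA synthesis, which is tied to histone supply in S phase, mostly had the opposite sign. Of 30 genes of DNA replication in S phase, 29 had a negative log2 fold change, where 55.1% of all genes tested had a positive one. At an unadjusted p under 0.05 in edgeR, 9 were lower in E-cadLO, against 5.81% of genes tested, and 0 were higher, against 8.16%. Their median log2 fold change was -0.33. The ribonucleotide reductase genes Rrm1 and Rrm2, which make DNA precursors, had log2 fold changes of -0.49 ± 0.15 and -0.85 ± 0.32, and the helicase gene Mcm6 -0.55 ± 0.18 (edgeR adjusted p = 0.287, 0.317 and 0.298). The summed share of the 30 genes was lower in E-cadLO in 4 of 4 mice, at 2493 ± 228 CPM against 3180 ± 545. The histone sum was thus 10.3%, 6.54%, 7.97% and 14.9% of the S-phase sum in E-cadHI and 37.1%, 16.4%, 27.3% and 17.0% in E-cadLO, again with every E-cadLO library above every E-cadHI library. Against 15 genes of mitosis it was 13.1% ± 4.24 and 27.2% ± 8.50.

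Of 18 genes of histone mRNA synthesis and 3' processing, 6 had a positive and 12 a negative log2 fold change. At an unadjusted p under 0.05 in edgeR, 1 was higher and 1 lower, against 8.16% and 5.81% of all genes tested. At the adjusted p, 0 passed in either edgeR fit. Slbp, whose product binds the stem-loop, was at 181 ± 33.6 and 163 ± 31.8 normalized CPM (-0.15 ± 0.20, edgeR adjusted p = 0.718). Snrpb, a core protein of small nuclear ribonucleoproteins, was at 418 ± 15.3 and 320 ± 33.1 (-0.38 ± 0.14, edgeR adjusted p = 0.310). Of 14 histone chaperone genes, 7 had a positive and 7 a negative log2 fold change, with a median of -0.01.

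Replacement histone genes together held far more counts than the 64 members, although H2afy2 and H1fx were at 0 in at least 1 E-cadHI library. H3f3b, a gene of H3.3, stood at 6178 ± 1432 and 6823 ± 1887 normalized CPM (0.14 ± 0.28, edgeR adjusted p = 0.815). H2afz, the gene of H2A.Z, was at 557 ± 55.1 and 399 ± 74.8 (-0.48 ± 0.18, edgeR adjusted p = 0.308). The linker histone gene H1f0 was at 402 ± 198 and 349 ± 171. Of 10 replacement histone genes tested, 3 had a positive log2 fold change and the median was -0.22. At an unadjusted p under 0.05 in edgeR 1 was lower, against 5.81% of all genes tested. The sum of the 64 members was 4.01% ± 0.76 of the summed counts of the replacement genes in E-cadHI and 7.16% ± 1.42 in E-cadLO, without overlap.

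The summed counts of RNAs that have no poly(A) tail were higher in E-cadLO in mice 57, 58 and 67 and lower in mouse 70. The list held 9 genes of the table, of which 1, Rn7sk, was tested. Rn7sk held most of the summed counts in every library, so the sum follows that gene. Rn7sk, the 7SK RNA, had 62, 299, 59 and 290 counts in E-cadHI and 572, 639, 1387 and 247 in E-cadLO (mice 57, 58, 67 and 70; log2 fold change 1.99 ± 0.71, unadjusted p = 0.0192, edgeR adjusted p = 0.303). Rpph1, the RNA of RNase P, had 2, 1, 6 and 2 against 12, 15, 85 and 10, and was thus higher in E-cadLO in mouse 70 too. The summed share of the list was 5.03, 24.2, 5.73 and 25.9 CPM in E-cadHI and 52.6, 73.6, 104 and 18.7 in E-cadLO. It was 3.39, 1.60 and 4.19 higher on the log2 scale in E-cadLO in mice 57, 58 and 67 and 0.47 lower in mouse 70, and Rn7s2, Rmrp, Terc, Rnu12 and Scarna2 were at 0 in at least 1 E-cadHI library. The part of such capture of RNA without a tail in the histone values was not tested.

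**Figure D5:**
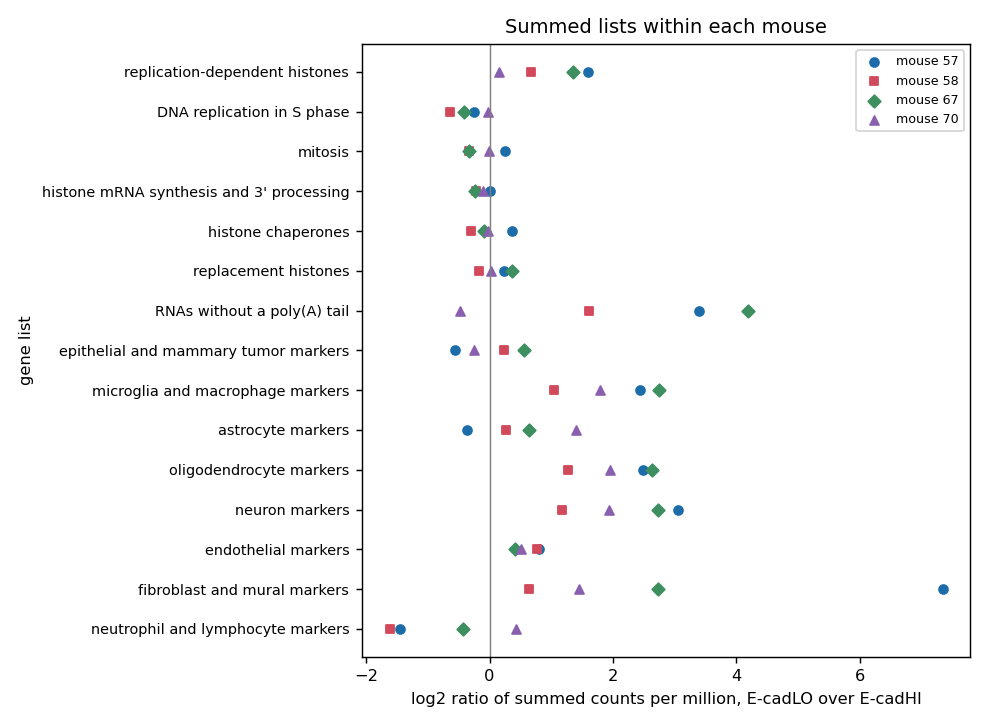
Log2 ratio of the summed CPM, E-cadLO over E-cadHI (x axis), for the 64 histone members and 14 other gene lists (y axis), with a point for each mouse. The histone sum lies right of 0 in 4 of 4 mice, the S-phase sum left of 0 in 4 of 4, and the sum of RNAs without a tail right of 0 in 3.

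Markers of other cells of the brain moved with E-cadLO as well. Of all genes tested, 55.1% had a positive log2 fold change. In bulk libraries, a change in the number of cells of a type and a change in RNA per cell cannot be told apart. All 10 microglia and macrophage markers had a positive log2 fold change, and 3 passed with the replicate block, P2ry12 and Cx3cr1 among them. In that fit 3 astrocyte, 2 oligodendrocyte and 1 neuron markers passed as well, against 0.728% of all genes higher in E-cadLO. For the microglia and macrophage markers the values were as follows. Their sum ranged from 30.4 to 241 CPM in E-cadHI and from 164 to 833 in E-cadLO, and none was at 0 in an E-cadHI library. Of 8 oligodendrocyte markers, 7 were positive, with sums from 269 to 7923 and from 1513 to 30610 (Olig2 at 0 in an E-cadHI library). All 8 neuron markers were positive (3.55 to 88.7 and 29.6 to 341, with Tubb3, Slc17a7 and Stmn2 at 0 in at least 1 E-cadHI library), as were all 8 astrocyte markers (1102 to 3411 and 859 to 8966).

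All 7 tested fibroblast and mural markers were positive, and their sum was 8.78 to 60.4 in E-cadHI and 25.0 to 1427 in E-cadLO, where mouse 57 held the 1427 and also the highest histone sum. Lum and Pdgfrb were at 0 in at least 1 E-cadHI library. The 7 tested endothelial markers were positive, with sums from 40.2 to 76.7 and from 69.8 to 102 (Cldn5 and Vwf at 0 in at least 1 E-cadHI library). Of 8 neutrophil and lymphocyte markers 1, S100a8, was tested and its log2 fold change was -1.03 ± 0.31 (edgeR adjusted p = 0.282), with sums from 15.4 to 25.0 and from 8.12 to 21.9. Mouse 70 had the highest sums of microglia, oligodendrocyte, neuron and astrocyte markers in both groups. Within mice 57, 58, 67 and 70 the log2 ratio of the microglia sum was 2.43, 1.04, 2.74 and 1.79, that of the oligodendrocyte sum 2.49, 1.26, 2.63 and 1.95, and that of the neuron sum 3.06, 1.17, 2.72 and 1.94. These ratios were largest in mice 57 and 67, as was the log2 ratio of the histone sum, at 1.59, 0.68, 1.35 and 0.16. The ratio of the astrocyte sum ran in another order, at -0.36, 0.26, 0.65 and 1.39. Without mouse 57, the mean within-mouse log2 ratio of the histone sum was 0.73, and without mouse 70 it was 1.21. The part of these cells in the histone values was not tested.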

How the data were processed

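The authors mapped single 65-base reads of poly(A)-selected libraries with HISAT2 2.1.0 to GRCm38 and deposited whole-number read counts per gene without normalization. The paper names Icount and the submitters' notes HTSeq for counting, and the use of strand and the treatment of reads that match several genes are not given in the sources used here. The 365 entries without a gene identifier (0.0636% to 0.0954% of a library's counts) were left out. Columns with the authors' own comparisons were not used, and no column of per-sample values was left unused.

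These were analysed in R 4.3.3 with edgeR 4.0.16, using TMM scaling, filterByExpr by group and quasi-likelihood tests on the 8 libraries together, and p-values were adjusted over all genes tested. Within-mouse ratios used normalized CPM plus 0.5, and summed shares used the library total. Exon lengths and stem-loops came from GENCODE M21 within the table's gene spans. Alternatives were DESeq2 1.42.0, its size factors in edgeR, no filter, the replicate block, a minimum of 10 counts per library, each mouse and each library left out, other denominators and member sets of the sum, the coding length and a distance of 200 bases past the stem-loop.

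Pairing comes from the sample labels, in which the 2 populations of an animal carry its number. Deviations from the group means correlated from 0.248 to 0.692 between libraries of the same mouse and from -0.541 to 0.144 between different mice. The study's methods name DESeq2 and no mouse term, and the main fit has no block.

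The fits were tested on simulated data for this comparison, 13598 genes with 200 changed 4-fold. With the spread of the unpaired fit, edgeR recovered 58.5%, edgeR with the block 49.5% and DESeq2 71% of the changed genes. With the spread of the paired fit these shares were 78%, 76% and 87%. Every simulated library was drawn independently and without a mouse effect, so the gain or loss from the block on paired libraries was not tested.

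The members, the gene lists and the tests were chosen with earlier results of these data known. Named members are the 12 with the highest mean CPM, the 3 highest of each family, the Hist3 and Hist4 members, the members called with or without the block, filled to 5 per direction by unadjusted p, and Hist1h1t, Hist1h2aa and Hist1h2ba. Of other lists at most 5 genes, called first and then by mean CPM, and Slbp are named. Members outside that rule (Hist1h2ac, Hist2h2be, Hist1h1d, Hist1h1e, Hist1h4a, Hist1h4c, those of pairs and those in lists of calls) were named after their values were seen. Python 3.11 with pandas 2.3 and scipy 1.17 was used for tables, and matplotlib 3.10 for figures. Some items are not reported here.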

Additional observations from a re-analysis of the deposited data

Results flagged for a closer look

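In 90 groups of 4 values examined (named members, sums and within-mouse ratios), 7 had a value far from the other 3 by Dixon's criterion, where chance gives about 1 in 20, or 4.5. Hist1h3d in mouse 57 E-cadLO was at 16.8 normalized CPM, beside 2.68 to 3.16 in the other E-cadLO libraries. The H3 sum of the same library was 40.9 CPM of the library total, beside 9.64 to 14.3. The H3 sum of mouse 67 E-cadHI was 2.98, beside 5.96 to 6.46, and the H1 sum of mouse 57 E-cadHI was 70.9, beside 47.0 to 50.02. Hist1h2al in mouse 58 E-cadHI was at 2.54 normalized CPM, beside 4.95 to 5.44. The log2 ratio of Hist1h2ba in mouse 70 was -0.25, beside 0.52 to 0.59, from 2 and 3 counts. Hist3h2bb-ps in mouse 57 E-cadHI was at 0.139 normalized CPM, which is 2 counts, beside 0 in the other 3.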

How the results depend on the processing

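At an adjusted p under 0.05, edgeR called 0 genes higher and 0 lower in E-cadLO. It called 99 higher with the replicate block, 23 without a filter and 3 with at least 10 counts in every library, and DESeq2 called 376 higher and 40 lower. Leaving out a mouse or library without the block gave from 0 to 13 higher calls (13 without E-cadLO mouse 70) and 0 lower. With the block and each mouse left out, chosen after the data were seen, it gave 425 higher and 24 lower without mouse 57, 63 and 3 without mouse 58, 0 without mouse 67 and 2 higher without mouse 70.

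Histone members called higher numbered 0 in the main fit, 1 with the block, 12 with DESeq2, 0 in every fit without the block that left out a mouse or library, and from 0 to 4 with the block (4 without mouse 57). At an unadjusted p under 0.05, 19 were higher, 12 of the 21 left with at least 10 counts in every library, and from 13 to 21 when a mouse or library was left out. In none of these fits was a member lower at that level. The median log2 fold change was 1.35, 0.86 with at least 10 counts in every library, where 21 of 21 were positive, and from 1.05 to 1.43 when a mouse or library was left out. The causes of these differences were not tested, apart from the smaller number of members left by the filter.

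The mean log2 ratio of the sum ranged from 0.73 to 1.21 when a mouse was left out. It was 0.98 with the total without Gm42418, 0.89 with the TMM-scaled total, 0.96 without members that share an exon, 1.14 without Hist1h2bc, and, both chosen after the data were seen, 1.14 without Hist1h2bc and Hist1h1c and 0.78 for the members not reaching past the stem-loop. With the coding length the level of Hist1h2bc was 446 in place of 229 normalized CPM per kb, over 378 in place of 736 bases. A distance of 200 bases left 10 of the 15 members past the stem-loop, and the median log2 fold change of those tested was 1.58 with either distance.

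Of 411 values of named members under an alternative, 387 kept their direction and their side of the threshold, 14 passed it (in DESeq2 or with the block) and 10 turned direction. All 10 were of Hist1h2ak, at -0.019 with the block, -0.044, -0.022 and -0.13 with the block and without mouse 57, 67 or 70, and from -0.115 to 0.19 without the block when a mouse or library was left out. The values of members under 10 counts in a library rest on few reads.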
